A study of Mus musculus with 2 samples.

Results

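Transthyretin, encoded by Ttr, carries thyroid hormone and retinol-binding protein, and in the brain it is made by the epithelium of the choroid plexus. The 100 spots with the largest share of RNA from Ttr, of 1993 spots with RNA, are described here and are called Ttr-rich. They were chosen by the Ttr values themselves, as the 100 highest shares of unique molecular identifiers (UMIs, counted RNA molecules) that came from Ttr. The comparison group was the 997 spots at or below the median share of 0.0686%, called low-Ttr. The Ttr contrast between these groups was therefore set by the choice and is given as a description only, as are the other RNA values that go with it.

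The mouse embryo was at E18.5, of C57BL/6 background, and homozygous for the CTCF R567W mutation made by CRISPR/Cas9. From its brain, SPARC-seq gave 1 RNA and 1 chromatin accessibility library with shared barcodes. Library construction used the TruePrep kit per the labels. There were no replicates and no spots of another genotype in this comparison, so both groups carried the mutation and no effect of it was measured. A spot is a pair of barcode segments and can hold several cells, so all shares below are shares of spots, and fewer cells of a type cannot be told apart from less RNA per cell. The intervals are 95% intervals for counting error only, since 1 library per assay allows no test between groups.

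The choroid plexus is a folded epithelial sheet in the ventricles, which secretes cerebrospinal fluid and transports ions, vitamins and hormones between blood and fluid. Its epithelium derives from the roof plate and is continuous with the ciliated ependyma that lines the ventricles. Folr1 (a folate receptor), Kcnj13 (a potassium channel), Clic6 (a chloride channel protein) and Otx2 (a homeodomain transcription factor) are markers of this epithelium besides Ttr. The meninges, which cover the brain, and radial glia of the ventricular zone are separate tissues that lie near it.

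Each barcode joins a first and a second segment of 8 bases, and the Ttr-rich spots were held together by the second. All spots with the same second segment are called a strip, without a known place on the tissue. The second segments below carried 95 of the 100 Ttr-rich spots, and are shown because they define the strips used in the rest of the text.
strip 1: CTGATGGT
strip 2: GCCGCAAC
strip 3: CCGAGAAT
The same few first segments then recurred among the highest spots of each strip. The next barcodes are shown for the first segments that had a spot among the 20 highest of the library in each of the 3 strips, with the strip's segment in capitals.
first segment 1 in strip 1: gaccttgaCTGATGGT
first segment 1 in strip 2: gaccttgaGCCGCAAC
first segment 1 in strip 3: gaccttgaCCGAGAAT
first segment 2 in strip 1: caaccgctCTGATGGT
first segment 2 in strip 2: caaccgctGCCGCAAC
first segment 2 in strip 3: caaccgctCCGAGAAT
For first segment 1, Ttr made up 4.57%, 6.13% and 5.61% of the UMIs in strips 1, 2 and 3. For first segment 2, the shares were 2.47%, 4.80% and 2.71%. All 6 spots were among the 20 highest of the library, and the largest share of all was that of first segment 1 in strip 2, with 207 Ttr UMIs of 3375. With the same first segments but outside the 3 strips, the median share was 0.124% for segment 1 and 0.0917% for segment 2, over 39 spots each. Both were above the median of 0.0646% over all spots outside the strips. The largest shares there were 0.962% for segment 1 and 1.07% for segment 2, and the latter spot was also among the 20 highest.

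Ttr was found in nearly every spot, and its level was far higher in few of them. The matrix held 10973 Ttr UMIs of 8726497, and 184 of the 1993 spots had none. The Ttr-rich spots took 40.3% of all Ttr UMIs with 4.44% of all UMIs. Their Ttr UMI count was lowest at 13, 24 in the median and 265 at the highest, against 0, 1 and 7 in low-Ttr spots. As a share of UMIs, the Ttr-rich spots ran from 0.427% through a median of 0.678% to 6.13%. Counts summed over the spots of a group were scaled to 1000000 UMIs of the group (CPM). Ttr was at 11412 CPM (11078 to 11754) in Ttr-rich spots and at 382 CPM (364 to 401) in low-Ttr spots. The last spots inside the limit had shares of 0.430% and 0.427%, and the first outside had 0.424% and 0.417%. No gap therefore separated the 100 spots from the next.

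**Figure D1:**
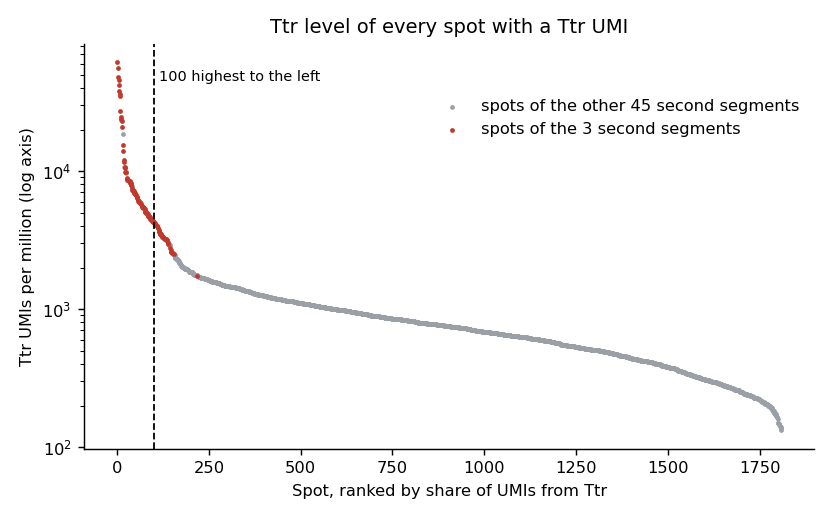
Ttr level in CPM of each spot with at least 1 Ttr UMI (log axis) against the rank of the spot. Red points are the spots of the 3 strips, grey points those of the other second segments, and the dashed line marks the 100 highest; 95 of the spots to its left are red.

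The Ttr level fell steeply within the 100 spots. The 20 highest spots, taken apart after the values had been seen, had 31263 CPM of Ttr and the other 80 had 6065 CPM. The 20th spot had a share of 1.07%. The 20 highest spots alone took 23.4% of the Ttr UMIs of the library. They lay on 10 first segments, and 17 of them were in the 3 strips.

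Depth was similar in both groups. Ttr-rich spots had a median of 3597 UMIs (1460 to 8305) and 2313 genes, and low-Ttr spots had 4143 UMIs (1174 to 11072) and 2566 genes. The 39 spots of the 3 strips that were not Ttr-rich were deeper, with medians of 5475 UMIs and 3160 genes. Since a share is noisier in shallow spots, the expected share of spots with a Ttr UMI was also taken at 1000 UMIs per spot, which every spot of both groups reached. It was 99.8% in Ttr-rich and 31.7% in low-Ttr spots, where the unthinned values were 100 of 100 and 813 of 997 spots.

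The strips were raised in Ttr as a whole, not only in their highest spots. They held 134 spots, 6.72% of all, of which 70.9% were Ttr-rich. Strip 1 held 38 Ttr-rich spots of 49, strip 2 held 32 of 43 and strip 3 held 25 of 42. Every one of the 134 spots had Ttr above the median of the library, and the lowest had 9 UMIs. Over all their spots, the strips had 8501, 9686 and 7003 CPM of Ttr. The next 3 second segments, which held the other 5 Ttr-rich spots, had 1973, 1636 and 1314 CPM. The other 42 second segments lay between 383 and 1036 CPM with a median of 652, and held no Ttr-rich spot. The ranges of the 3 strips and of the other 45 second segments did not overlap. This follows in part from the choice of the strips as the second segments with most Ttr-rich spots.

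The first segments showed no such limit. Ttr-rich spots fell on 45 of 50 first segments, with at most 5 on one. Of the Ttr-rich spots, 95% lay on 3 second segments, and their 6 most frequent first segments carried 22.0%. Low-Ttr spots spread over 45 second and 50 first segments, and their 3 most frequent second segments carried 10.8%. None of them was in the 3 strips, which follows in part from how they were chosen. Both segments were drawn from shared sequences, 48 of them seen in both positions, so the barcodes with the segments exchanged could be looked up. Of the Ttr-rich barcodes, 89 had such an exchanged partner with RNA, and the partners had 931 CPM of Ttr, with 4 of them Ttr-rich. The partners of low-Ttr spots, 793 in number, had 1350 CPM and 52 of them were Ttr-rich. For the 20 highest spots, 18 partners had 730 CPM, and none of these partners was Ttr-rich. A partner lies in a strip only if the first segment of the original spot is a strip sequence. The partner values therefore follow in part from the layout of the strips, and are no check apart from it. The sequences of the 3 strips, when in the first position, ranked 33rd, 20th and 45th of 50 for strips 1, 2 and 3.

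The strips also resembled each other along the first segments. The Spearman correlation of the Ttr share over shared first segments was 0.37 for strips 1 and 2 (43 first segments), 0.50 for strips 1 and 3 (42) and 0.55 for strips 2 and 3 (40). With other second segments, the 3 strips had correlations from -0.33 to 0.49, with a median of 0.05 over 114 pairs. The highest of these was above the value for strips 1 and 2. Spots outside the strips had a median of 3 Ttr UMIs, where each strip spot had at least 9, so their shares were noisier. The part of this noise in the lower correlations was not tested. These are descriptions over spots of 1 library. In the 3 strips, first segments ranged from 3031 to 52657 CPM of Ttr with a median of 5245 CPM. Outside them, the same first segments ranged from 545 to 2131 CPM.

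**Figure D2:**
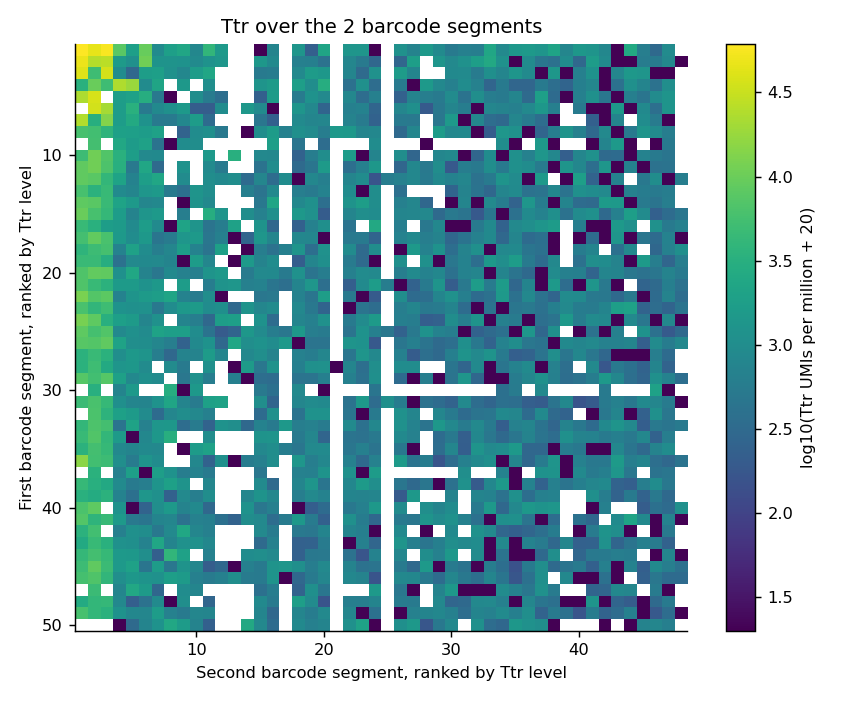
Ttr level, as log10 of CPM plus 20, of each spot by its first segment (rows) and second segment (columns), each ranked by its Ttr level and not by place in the tissue; white cells have no spot in the matrix. The 3 columns at the left are strips 2, 1 and 3, raised over nearly all rows, with the highest spots in the top rows.

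Choroid plexus genes other than Ttr were higher in Ttr-rich spots, by less than Ttr was. The list held 29 such genes, of which 28 were in the matrix. Together they had 253 UMIs or 653 CPM in Ttr-rich spots and 1199 UMIs or 278 CPM in low-Ttr spots, a ratio of 2.35 (2.04 to 2.69). Per spot, the list ran from 0 CPM through a median of 463 to 4148 in Ttr-rich spots, and from 0 through 240 to 1918 in low-Ttr spots. The ranges overlapped widely, and a spot held few of these UMIs. The part of counting error in this overlap was not tested. Without Folr1 the ratio was 2.08 (1.79 to 2.40).

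The rise was concentrated in the spots with most Ttr. The list had 1688 CPM (1346 to 2090) in the 10 highest spots and 1202 CPM (855 to 1643) in the next 10. It had 503 CPM (334 to 727) in spots ranked 21 to 40, 554 CPM (392.4 to 761) in those ranked 41 to 60, 399 CPM (276 to 557) in those ranked 61 to 80, and 313 CPM (211 to 447) in those ranked 81 to 100. The next 100 spots had 295 CPM (243 to 354), close to the 278 CPM (262 to 294) of low-Ttr spots. The spots between these groups were at 255 CPM (227 to 284) from rank 201 to 500 and at 244 CPM (224 to 264) beyond, so the level did not fall steadily with rank. Over low-Ttr spots, the ratio was 5.38 (4.44 to 6.49) for the 20 highest spots and 1.53 (1.27 to 1.84) for the other 80. In the 39 spots of the 3 strips that were not Ttr-rich it was 1.16 (0.897 to 1.48), although these spots had 3371 CPM of Ttr. Their number of Ttr UMIs per choroid plexus UMI was 10.4, against 20.9 in the 20 highest spots, 14.2 in the other 80 and 1.38 in low-Ttr spots. These numbers fall along the groups in part because the groups were ordered by Ttr.

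**Figure D3:**
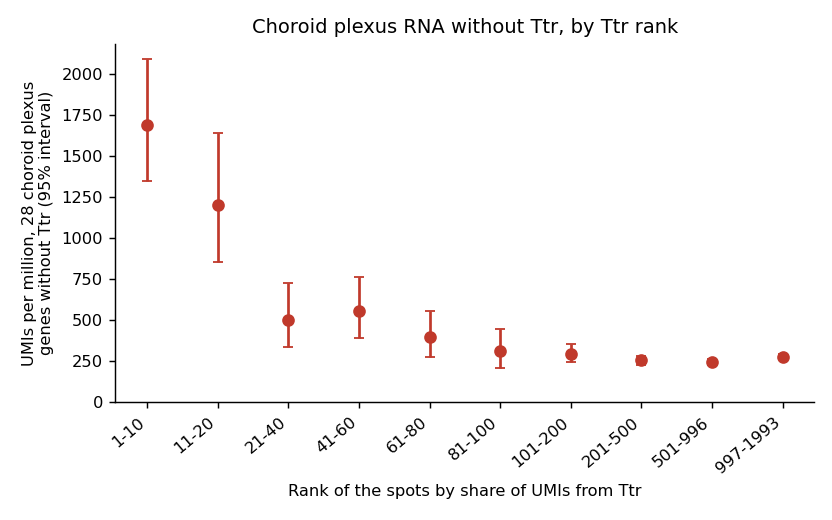
CPM of 28 choroid plexus genes without Ttr, summed over the spots of each range of Ttr rank, with exact 95% Poisson intervals. Spots ranked 1 to 20 stand above all other ranges, and spots ranked 81 to 100 are at 313 CPM, near the 278 CPM of the low-Ttr spots, ranked 997 to 1993.

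Each strip showed this rise. In its Ttr-rich spots, the list was 2.26 times the low-Ttr level in strip 1 (1.82 to 2.78), 2.54 times in strip 2 (2.0 to 3.20) and 2.12 times in strip 3 (1.61 to 2.75). The 5 Ttr-rich spots outside the strips were at 3.19 times (1.85 to 5.13).

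Of the markers of the choroid plexus, the folate receptor gene Folr1 was the clearest. It had 37 UMIs in Ttr-rich and 41 in low-Ttr spots, or 95.5 against 9.50 CPM, a ratio of 10.05 (6.27 to 16.1). The 37 UMIs were spread over 23 spots with at most 5 in a spot, and the 41 over 39 spots. At 1000 UMIs per spot, 8.42% of Ttr-rich and 0.903% of low-Ttr spots would hold a Folr1 UMI. The 20 highest spots held 23 UMIs in 11 spots, a ratio of 29.4 (16.9 to 50.2), and in the other 80 it had 14 UMIs and a ratio of 4.83 (2.43 to 9.04). By strip, the Ttr-rich spots had 25.6, 190 and 98.4 CPM of Folr1 in strips 1, 2 and 3, so the level in strip 1 was the lowest of the 3. These levels rest on 4, 21 and 10 UMIs, and the strips held 4, 8 and 5 of the 20 highest spots.

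The chloride channel protein gene Clic6 had 11 UMIs in Ttr-rich and 30 in low-Ttr spots, a ratio of 4.08 (1.85 to 8.38). Of these, 8 were in the 20 highest spots, where the ratio was 14.0 (5.54 to 31.3). Otx2 had 14 and 111 UMIs, a ratio of 1.40 (0.744 to 2.46) whose interval held 1. Its 7 UMIs in the 20 highest spots gave 3.31 (1.30 to 7.05). Kcnj13 had 3 and 16 UMIs, and its ratio of 2.09 (0.390 to 7.30) could not be told from 1 at this depth. So of the markers named with Ttr, Folr1 and Clic6 had intervals above 1, and the label of choroid plexus signal rests mostly on the 20 highest spots.

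The secreted proteins of the list followed. Enpp2, which encodes autotaxin, had 33 and 125 UMIs, a ratio of 2.94 (1.94 to 4.35). Sostdc1, a secreted antagonist of BMP and WNT signalling, had 14 and 23 UMIs, a ratio of 6.78 (3.23 to 13.7), and these 14 UMIs were in 14 spots. Ecrg4, which encodes a secreted peptide precursor, had 12 and 37 UMIs, a ratio of 3.61 (1.72 to 7.08). Among channels, transporters and enzymes, Car12, a carbonic anhydrase, had 14 and 40 UMIs and a ratio of 3.90 (1.96 to 7.32). Kcne2, a potassium channel subunit, had 5 and 7 UMIs, a ratio of 7.96 (1.99 to 29.1). The bicarbonate transporter gene Slc4a5 had 5 and 13 UMIs, a ratio of 4.28 (1.20 to 12.8). Tmem72 at 4.64 (1.28 to 14.2), Calml4 at 3.13 (1.32 to 6.72), the glucose transporter gene Slc2a12 at 3.07 (1.21 to 6.89) and Cab39l at 1.96 (1.23 to 3.01) also had intervals above 1. For all of these genes the counts are small, and each interval covers only their counting error.

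For other genes of the list the interval over the 100 spots held 1. The water channel gene Aqp1 had 7 and 41 UMIs, a ratio of 1.90 (0.720 to 4.28). Slc13a4, Col8a1, Slc31a1 and Wdr86 had ratios of 2.53, 1.63, 1.31 and 1.39, and all their intervals held 1. Over the 20 highest spots, Aqp1 was at 5.12 (1.33 to 14.1), Slc13a4 at 9.54 (2.39 to 28.1) and Col8a1 at 4.20 (2.12 to 7.55), with 4, 4 and 12 UMIs. Slc31a1 was at 2.05 (0.655 to 4.91) there and Wdr86 had no UMI. Calml4 had 1 UMI in the 20 highest spots, at 1.64 (0.0403 to 9.82), and 8 in the other 80, at 3.53 (1.41 to 7.83). Below 1 were the prolactin receptor gene Prlr with 3 and 75 UMIs, at 0.446 (0.0899 to 1.35), Abca4 at 0.464 (0.0546 to 1.77) and Lbp at 0.359 (0.00882 to 2.16). Kl, Steap1, Pon1, F5 and the tight junction gene Cldn2 had no UMI in Ttr-rich spots, and 12, 9, 4, 2 and 2 UMIs in low-Ttr spots. The intervals of their ratios ended at 4.01, 5.64, 16.9, 59.3 and 59.3, so neither a higher nor a lower level could be told at this depth. Slc16a8 had 1 UMI in each group.

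A gene was counted as higher when its CPM plus 20 was at least 1.5 times as large in Ttr-rich as in low-Ttr spots. This was applied to 10694 genes with at least 100 UMIs over all spots, Ttr left out. Of these, 138 were higher, or 1.29%, and 298 were lower, or 2.79%. These counts moved with the choice of spots, to 461 higher and 996 lower for the 50 highest spots and 39 and 49 for the 200 highest. Ttr-rich spots of the strips against the remaining strip spots gave 855 higher and 687 lower, so the balance turned. Only 7 genes of the choroid plexus list passed the minimum of 100 UMIs, of which Folr1, Enpp2 and Cab39l were higher and none was lower. Their median ratio with the added 20 CPM was 1.40, against 0.985 over all genes tested. Folr1 had 93 UMIs outside the Ttr-rich spots and so passed the minimum only through them, and the count and the median rest in part on this. Without the minimum, 10 of the 28 genes were higher, against 0.800% of 26368 genes with any UMI. In the 20 highest spots, with fewer UMIs, 6 of the 7 genes were higher against 9.23% of the 10694. These counts describe the list and are no evidence apart from the choice of the spots by Ttr.

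**Figure D4:**
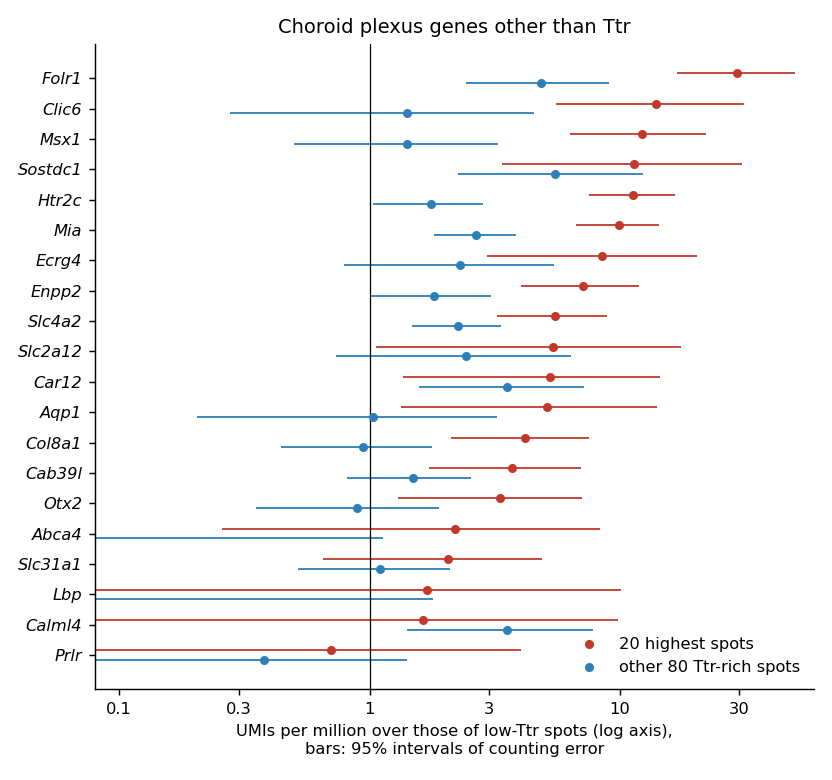
Ratio of CPM over low-Ttr spots (log axis) for choroid plexus list genes with at least 50 UMIs, with Htr2c, Mia, Slc4a2 and Msx1 added, in the 20 highest spots (red) and the other 80 (blue). Bars are 95% intervals for counting error, cut at the left edge; genes at 0 UMIs have a bar and no point. Folr1 reaches 29.4 in the 20 highest spots and 4.83 in the other 80. Sostdc1, with 55 UMIs in all and 14 in Ttr-rich spots, passed the minimum of 50 only through these spots.

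The 15 genes with the highest ratios included Folr1, which passed the minimum only through the Ttr-rich spots, and Enpp2. Mia, a secreted protein gene of cartilage that was placed here on the ependymal list, had 70 and 185 UMIs, a ratio of 4.21 (3.15 to 5.58). Htr2c, the serotonin receptor gene known for its high level in the choroid plexus, was not on the list and had 52 and 153 UMIs, a ratio of 3.79 (2.71 to 5.22). In the 20 highest spots, Htr2c reached 11.3 (7.53 to 16.6) with 33 UMIs in 15 spots, and in the other 80 it was at 1.76 (1.03 to 2.84). The anion exchanger gene Slc4a2 had 48 and 181 UMIs, a ratio of 2.95 (2.10 to 4.08). Msx1, a roof plate homeobox gene, had 20 and 60 UMIs, a ratio of 3.71 (2.12 to 6.25), of which 14 were in the 20 highest spots. The collagen gene Col9a3 was at 3.63 (2.28 to 5.61) and the sodium pump regulator gene Fxyd1 at 2.09 (1.48 to 2.89).

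Other genes among the 15 highest differed less between these groups. Lhx9, a LIM homeobox gene of the developing diencephalon, had a ratio of 2.66 (1.68 to 4.07) in the other 80 spots and 1.90 (0.608 to 4.55) in the 20 highest. Kitl, the ligand of the receptor Kit, was at 2.09 (1.51 to 2.82) in the other 80 and 1.74 (0.860 to 3.15) in the 20 highest, and at 2.37 in the 39 remaining spots of the strips. Tspan33 was at 2.59 (1.38 to 4.52) and 2.56 (0.681 to 6.81). For these 3 genes the intervals of the 20 and of the 80 spots overlapped, and the ratio was not larger in the spots with most Ttr. Gm29478, Klhdc8b, Cyp20a1 and Tbc1d9 completed the 15, with ratios over all 100 spots of 3.37, 2.59, 3.04 and 2.12.

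Likeness to Ttr over the 48 second segments was taken for genes with at least 500 UMIs, a minimum that no gene of the choroid plexus list reached. The highest Pearson correlations of log2(CPM + 20) were 0.46 for Prox1, 0.45 for Rnf220, 0.42 for Sema6d, 0.40 for Kitl and 0.36 for Snu13. These are modest values over 48 segments that share a library, and the 3 strips weigh in each of them. Prox1, a homeobox gene, had 174 CPM in the 3 strips and 77.2 CPM elsewhere. It had 3.32 times the low-Ttr level in the 39 remaining spots of the strips, and 1.33 times (0.569 to 2.65) in the 20 highest spots. All 5 genes had a lower ratio in the 20 highest spots than in the other 80, a difference given as a description.

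The 10 genes with the lowest ratios were of several kinds. Car3, a carbonic anhydrase of muscle and fat, had 15 and 450 UMIs, a ratio of 0.371 (0.206 to 0.619). Pomc, the pituitary hormone precursor gene, had 15 and 444 UMIs, a ratio of 0.376 (0.209 to 0.627). Neurod2, a transcription factor gene of cortical excitatory neurons, had 6 and 229 UMIs, a ratio of 0.292 (0.106 to 0.645), and Id2 had 1 UMI against 116. Tceal7, Dhx9, Gpc4 and Hspb7 had ratios from 0.165 to 0.328. Ninl and LTO1 had no UMI in Ttr-rich spots and 91 each in low-Ttr spots, and the interval of their ratio ended at 0.461. Ttr-rich spots held 387389 UMIs in all and low-Ttr spots 4314977, so equal rates also give far fewer UMIs in Ttr-rich spots. These genes, like the 15 highest, were picked as extremes of the 10694 tested. Their intervals take no account of that choice, and extremes of this kind can arise by counting alone.

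Ventricular RNA differed little between the groups. The list of 20 radial glia genes had 3206 CPM in Ttr-rich and 2897 CPM in low-Ttr spots, a ratio of 1.11 (1.04 to 1.17). The strip spots that were not Ttr-rich were at 0.939 (0.863 to 1.02) of the low-Ttr level. Ttr-rich spots of the strips compared with these gave 1.17 (1.06 to 1.29). None of the 20 was counted as higher or lower over the 100 spots, against 1.29% and 2.79% of all genes. In the 20 highest spots 6 were higher, against 9.23% of all genes, and the list was at 1.11 (0.978 to 1.25). Its 2 most abundant genes, Dbi and Cdh2, had ratios of 1.16 (1.0 to 1.33) and 0.972 (0.832 to 1.13). In the 20 highest spots, Cdh2, the N-cadherin gene, was at 0.517 (0.319 to 0.792). The cycling cell list, with Mki67 and Top2a, was at 0.989 (0.775 to 1.25).

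The list of ependymal and motile cilia genes was higher, and Mia and strip 1 held much of the difference. Its 20 genes had 493 against 322 CPM, a ratio of 1.53 (1.31 to 1.78), and Mia was the only one of 14 tested that was counted as higher, against 1.29% of all genes. Without Mia, the list had 312 against 279 CPM and a ratio of 1.12 (0.921 to 1.35). The cilia gene 1110017D15Rik had 23 and 156 UMIs, a ratio of 1.64 (1.01 to 2.55). In Ttr-rich spots of strip 1 the list was at 717 CPM and Mia at 301 CPM. In strips 2 and 3 the list was at 317 and 275 CPM and Mia at 81.6 and 59.0 CPM. Strip 1 without Mia was at 416 CPM, against 279 CPM in low-Ttr spots, and the 5 Ttr-rich spots outside the strips were at 834 CPM with Mia. Without strip 1 the ratio of the list was 1.06 (0.835 to 1.33). The list was at 2.95 (2.32 to 3.70) in the 20 highest spots, where 6 of the 14 tested genes were higher against 9.23% of all genes, and at 1.15 (0.941 to 1.39) in the other 80. Strip 1, with the most ependymal RNA of the 3, was the strip with the least Folr1, at 4 UMIs. Other choroid plexus RNA was not lowest there in the same way. Htr2c was at 134, 127 and 148 CPM in strips 1, 2 and 3, and the choroid plexus list at 2.26, 2.54 and 2.12.

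Regulators of the roof plate and of choroid plexus formation had 83 and 746 UMIs, a ratio of 1.24 (0.976 to 1.56). The list was at 2.04 (1.36 to 2.96) in the 20 highest spots and at 1.02 (0.762 to 1.35) in the other 80. Of 8 tested genes, Msx1 was higher and none was lower, against 1.29% and 2.79% of all genes. The most abundant, the WNT enhancer gene Rspo2 and the secreted factor gene Dkk3, had ratios of 0.644 (0.254 to 1.37) and 0.879 (0.392 to 1.73). Genes of fluid secretion and transport had a ratio of 1.32 (1.20 to 1.44), and 4 of 17 tested genes were higher and none lower, against 1.29% and 2.79% of all genes. This list was at 1.98 (1.68 to 2.32) in the 20 highest spots and at 1.14 (1.02 to 1.27) in the other 80. The sodium pump gene Atp1b1, which neurons also express, was at 0.969 (0.735 to 1.26).

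RNA of the meningeal list was lower in Ttr-rich spots. The 27 meningeal genes in the matrix had 1830 against 2599 CPM, a ratio of 0.704 (0.652 to 0.760). Of 14 tested genes, 3 were lower and 1 was higher, against 2.79% and 1.29% of all genes. Col1a1, a fibrillar collagen gene, was at 498 and 870 CPM, a ratio of 0.572 (0.493 to 0.662), and the growth factor gene Igf2 at 0.837 (0.712 to 0.978). Col1a1 alone had 3756 of the list's 11213 UMIs in low-Ttr spots. Other connective tissue also expresses such collagen genes, and its part in the lower level was not tested. The 39 strip spots that were not Ttr-rich were low as well, at 0.667 (0.600 to 0.740). Ttr-rich spots of the strips compared with these gave 1.035 (0.910 to 1.18), an interval that held 1. The part of the strips in the lower level was not tested. The highest meningeal level in a spot was 4452 CPM in the Ttr-rich group and 17959 CPM in the low-Ttr group. None of the 100 spots with most meningeal RNA was Ttr-rich.

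RNA of other tissues differed between the groups too. Skeletal muscle genes were at 0.630 (0.598 to 0.663), with 7 of 12 tested genes lower against 2.79% of all genes, the pituitary list at 0.652 (0.501 to 0.836) and the secretory and ciliated epithelium list at 0.610 (0.479 to 0.766). The 39 strip spots that were not Ttr-rich were low as well, at 0.651 (0.609 to 0.696), 0.501 (0.331 to 0.728) and 0.425 (0.285 to 0.609) for these lists. Their most abundant genes were Myh8 and Mylpf at 0.604 and 0.563, Pomc and Gh at 0.376 and 0.591, and Bpifa1 and Wfdc2 at 0.578 and 0.655. The erythroid list was at 1.40 (1.35 to 1.45), with the globin genes Hba-a1 and Hba-a2 at 1.43 and 1.45. None of its 5 tested genes was counted as higher, against 1.29% of all genes, which is near the background. The erythroid list reached 1.96 (1.84 to 2.08) in the 20 highest spots. Endothelial and mural genes were at 1.19 (1.04 to 1.37), with Flt1 and Cldn5 at 1.30 each and the list at 1.25 (1.04 to 1.49) in the 39 strip spots that were not Ttr-rich, and microglia and macrophage genes at 1.29 (1.02 to 1.61), with C1qb and Pf4 at 1.10 and 1.16. Neuron genes were at 0.959 (0.930 to 0.988), with Meg3 at 0.908. The neuron list was at 0.801 (0.746 to 0.859) in the 20 highest spots, at 1.001 (0.968 to 1.04) in the other 80 and at 1.07 (1.03 to 1.11) in the remaining spots of the strips. The part of these tissues in the other ratios was not tested.

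Other known sources of Ttr were looked at, the liver and the retinal pigment epithelium, both of which make transthyretin. Liver genes had 21 and 185 UMIs, a ratio of 1.26 (0.764 to 1.99), with Trf at 1.70 (0.813 to 3.23) and Apoc1 at 1.73 (0.659 to 3.87). Of the 15 liver genes, 11 had no UMI in Ttr-rich spots, and Trf and Apoc1 had 11 and 7 of the 21 UMIs. Pigment epithelium genes had 27 and 188 UMIs, a ratio of 1.60 (1.03 to 2.40), with Mitf at 1.59 (0.696 to 3.22) and Rlbp1 at 1.66 (0.633 to 3.69). None of the tested genes of these lists, 2 and 1 in number, was counted as higher over the 100 spots. This is near the background of 1.29% of all genes. In the 20 highest spots the liver list was at 2.84 (1.34 to 5.34), and Trf and Apoc1 had 5 and 4 of its 10 UMIs. The pigment epithelium list was at 2.23 (0.95 to 4.49) there. Both tested liver genes and the 1 tested pigment epithelium gene were higher in these spots, against 9.23% of all genes. The part of either tissue in the Ttr level was not tested.

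The 100 spots richest in each list were set beside the 100 Ttr-rich spots, which make up 5.02% of all spots. Of the spots richest in choroid plexus RNA without Ttr, 23 were Ttr-rich, and 15 of these were among the 20 highest by Ttr. The number was 13 each for the fluid transport and the pigment epithelium lists, 12 for the ependymal list, 6 for radial glia, 9 for the erythroid list, 3 for neurons and 1 for the pituitary list. It was 0 for the skeletal muscle and the secretory epithelium lists. Of the 100 spots richest in choroid plexus RNA without Ttr, 22 lay in the 3 strips, against 6.72% of all spots. These 100 spots lay on 39 second segments. In low-Ttr spots, Col8a1, Cab39l, Slc31a1, Enpp2 and Otx2 had 150, 142, 128, 125 and 111 of the list's 1199 UMIs. With few UMIs per spot, many of the 100 spots can rank high by counting alone, so these ranks do not place choroid plexus tissue.

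**Figure D5:**
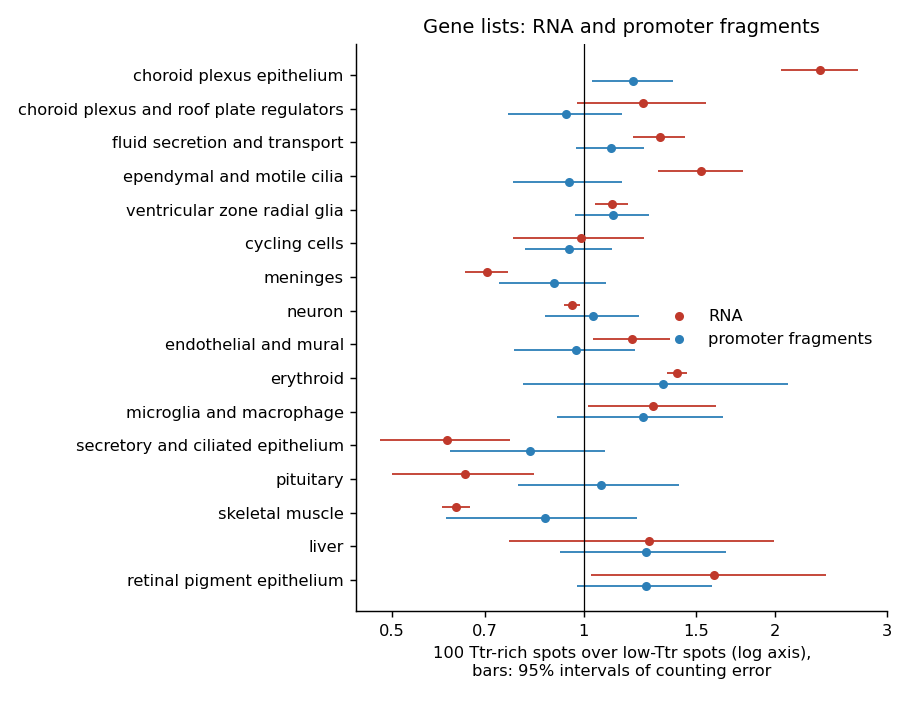
Ratio of the 100 Ttr-rich spots over low-Ttr spots (log axis) for 16 gene lists without Ttr, for RNA (red) and for fragments within 1 kb of the transcription start (blue), with 95% intervals for counting error. The choroid plexus list is at 2.35 in RNA and 1.20 in promoter fragments, and the meningeal list at 0.704 and 0.897.

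Chromatin accessibility took no part in the choice of the spots. The fragments of both groups were alike in number and kind. Ttr-rich spots had a median of 20642 fragments (8016 to 35392) and low-Ttr spots 21315 (5759 to 87572), a ratio of medians of 0.968. Short fragments, below nucleosome size, were 45.6% and 46.6% of all, and fragments within 1 kb of a transcription start 10.6% and 11.0%. The density of insertions at starts over flanking sequence was 9.54 and 9.91. The remaining spots of the 3 strips were deeper, with a median of 25969 fragments.

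At the promoters of the choroid plexus list, the difference was small. The 28 promoters together had 202 fragments of 217962 promoter fragments in Ttr-rich spots and 1925 of 2485656 in low-Ttr spots, a ratio of 1.20 (1.03 to 1.38). Scaled to all fragments in place of promoter fragments, it was 1.15 (0.989 to 1.33), and without strip 1 it was 1.16 (0.957 to 1.40), both with intervals that held 1. In the 20 highest spots it was 1.79 (1.36 to 2.32) with 59 fragments, and in the other 80 it was 1.05 (0.882 to 1.25). By strip the ratio was 1.25 (0.992 to 1.56), 1.19 (0.907 to 1.54) and 1.16 (0.860 to 1.53). Of 25 promoters with at least 50 fragments, 1 was counted as higher by the same rule of CPM plus 20, against 3.13% of 22044 promoters, which is near the background. Their median ratio was 1.09, against 0.982 over all promoters tested.

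Most single promoters held few fragments, and their intervals were wide. Ttr had 2 fragments in Ttr-rich and 19 in low-Ttr spots within 1 kb of its start, a ratio of 1.20 (0.136 to 4.98). At this depth no difference at the Ttr promoter was detectable. Folr1 had 0 and 27 fragments, which bounds its ratio at 1.67. Clic6 had 6 and 41, Kcnj13 had 2 and 17, and Otx2 had 4 and 43, with ratios of 1.67, 1.34 and 1.06 whose intervals held 1. Enpp2 had 14 and 96, a ratio of 1.66 (0.876 to 2.93), and Ecrg4 14 and 91, a ratio of 1.75 (0.923 to 3.10). The promoter of Slc4a5 had 8 and 35 fragments, at 2.61 (1.04 to 5.72), and that of Htr2c 9 and 40, at 2.57 (1.09 to 5.37). For Mia, whose RNA was among the highest, the promoter was at 0.430 (0.0508 to 1.63) with 2 and 53 fragments.

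The promoters of Htr2c, Ecrg4 and Mia are shown, the first pair for a peak over the start with more counts in Ttr-rich spots and Mia as a gene without it. They were chosen after the values had been seen. Each is the 250 bases before the RefSeq start in GRCm38.p6, 5′ to 3′ on the gene's strand, with matches to CCAAT or TAATCC on either strand in capitals. CCAAT is the core of the CCAAT box and TAATCC the core bound by OTX proteins.
Htr2c, chrX:146962263-146962512, plus strand: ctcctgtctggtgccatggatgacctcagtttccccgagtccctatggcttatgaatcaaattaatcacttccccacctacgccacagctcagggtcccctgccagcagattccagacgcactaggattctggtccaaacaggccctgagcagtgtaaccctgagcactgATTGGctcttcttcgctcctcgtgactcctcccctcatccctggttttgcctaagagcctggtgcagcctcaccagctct
Ecrg4, chr1:43730352-43730601, plus strand: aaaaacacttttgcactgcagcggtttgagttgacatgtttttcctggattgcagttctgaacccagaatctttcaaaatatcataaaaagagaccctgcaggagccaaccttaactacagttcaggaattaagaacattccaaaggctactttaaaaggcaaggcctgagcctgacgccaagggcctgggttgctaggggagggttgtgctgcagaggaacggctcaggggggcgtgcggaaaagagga
Mia, chr7:27181150-27181399, minus strand: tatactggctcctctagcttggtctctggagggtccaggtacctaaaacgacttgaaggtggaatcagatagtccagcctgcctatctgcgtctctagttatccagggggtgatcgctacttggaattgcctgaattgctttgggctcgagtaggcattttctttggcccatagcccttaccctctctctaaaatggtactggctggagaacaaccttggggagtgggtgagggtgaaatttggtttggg
Htr2c held 1 match to CCAAT and none to TAATCC, and the other promoters held neither. Over the same 250 bases of 32817 promoters, 33.8% held CCAAT and 6.25% held TAATCC. RefSeq promoters were found for 23 of the 29 list genes, 30 promoters in all, of which 3 held TAATCC and 7 held CCAAT. The matches describe the letters only.

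Peaks over some starts had more counts in Ttr-rich spots. The peak over the start of Ecrg4 (GRCm38, chr1:43730230-43731147) had 27 cut sites in 13 Ttr-rich spots and 138 in 71 low-Ttr spots, a ratio of 2.17 (1.38 to 3.30). That over the start of Enpp2 (chr15:54919690-54920532) had 24 in 11 and 135 in 70 spots, a ratio of 1.97 (1.22 to 3.06), and that at Htr2c (chrX:146962248-146963014) had 12 in 7 and 52 in 28 spots, a ratio of 2.56 (1.24 to 4.86). The peak over the start of Sostdc1 was at 1.08 (0.419 to 2.34), and a peak 325 bp from the start of Otx2 at 0.628 (0.125 to 1.94). Both ends of a fragment are counted as cut sites, so these counts mostly come in pairs and the intervals are too narrow. Near Ttr, 21658 bp from its start, a peak had 11 cut sites in 6 and 50 in 26 spots, a ratio of 2.44 (1.15 to 4.75). Another, 33093 bp away, was at 0.837 (0.220 to 2.27).

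Over all peaks the background was wide. Of 48787 peaks with at least 100 cut sites, 7058 were at least 1.5 times higher in cut-site CPM plus 2, or 14.5%. Within 50 kb of the starts of the choroid plexus list without Ttr, 21 of 86 such peaks, or 24.4%, were higher. Another 21 were lower, against 23.3% of all peaks tested. Summed over these 86 peaks the ratio was 1.03 (0.969 to 1.10), and their median was 1.01, against 0.958 over all peaks tested. The 10 peaks with the highest ratios, from 4.58 to 8.64 with the added 2 CPM, held 18 to 34 cut sites in 6 to 14 Ttr-rich spots. Of these, 7 reached the minimum of 100 cut sites only with the counts of the Ttr-rich spots, so their high ratios rest in part on the minimum. The highest (chr1:83847917-83848885) had 32 cut sites in 14 Ttr-rich spots and 27 in 14 low-Ttr spots, and the nearest start was that of 4933436I20Rik, 62759 bp away. The others were nearest to Car10, Plcl1, March4, Gm49895, Ncf4, 4932413F04Rik, Kcnj16, Plpp4 and Arhgap26, none of which is on the choroid plexus list.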

How the data were processed

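The raw counts were used as deposited. Per the file headers, the authors ran cellranger-arc 2.0.1 on an mm10 reference, and the labels name Seurat 4.0. Its 1993 barcodes carry UMI counts of 32285 genes and 91223 peaks counted by cut site. The fragment file holds 2500 barcodes, of which 507 have no RNA counts. How the matrix barcodes were chosen, and the filters before deposit, are not given in the sources used here. A spot was a barcode. Spots were ranked by Ttr UMIs over all gene UMIs. UMI counts were summed over the spots of a group and divided by the group's total, and no value was normalised between spots.

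A ratio is that of 2 such rates, with an exact conditional binomial interval. Single rates have exact Poisson intervals. All are at 95% and cover counting error only, not the spread between samples. Fragments overlapping 1 kb on each side of a transcription start were counted, from the most upstream start of the principal transcripts of GENCODE M21. They were scaled to all fragments near any start. Only genes and peaks with at least 100 counts, and promoters with at least 50 fragments, were counted as higher or lower at 1.5-fold, with 20 CPM added for genes and promoters and 2 for peaks. Shares at 1000 UMIs were expected values from the hypergeometric distribution. Doublets were not called, since spots can hold several cells.

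The 16 gene lists, the Ttr-rich spots and the rules were chosen with earlier results of these data known. The genes named were the markers given with Ttr, the choroid plexus list, the 2 most abundant genes of each other list (some of which are not reported here), the 15 highest and 10 lowest ratios, and the 5 genes most like Ttr over second segments. The split into 20 and 80 spots and the comparisons within strips were added after the values were seen. Ratios, intervals and the window count were tested on simulated data. Python 3.11.15, numpy 2.4.6, scipy 1.17.1, pandas 2.3.3 and matplotlib 3.10.9 were used.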

Additional observations from a re-analysis of the deposited data

Results flagged for a closer look

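In the fragment file, 16 barcodes of the 3 strips that carried 95 of the Ttr-rich spots had no RNA counts, and they held 258867 fragments. They lie outside the comparisons above, since without RNA they could not be ranked by Ttr.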

How the results depend on the processing

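Of 129 values of 11 results under 23 alternative settings, 88 stayed within their counting interval. For counts the limit was 1.5 times, and for the ratio of median fragments 10%. Another 40 moved further, and 1 moved further and turned its direction. The turned value, the meningeal ratio within the strips, had an interval that held 1 (0.910 to 1.18). The Ttr promoter ratio stayed within its wide interval but fell below 1 under some settings, to 0.515 within the strips. With the 50 highest spots as Ttr-rich, the ratio of the choroid plexus list was 3.62, of the ependymal list 2.17, of fragments per spot 0.814 and of choroid plexus promoters 1.48, with 461 genes higher and 996 lower. With the 200 highest, the choroid plexus ratio was 1.71, the meningeal 0.846, the ventricular 1.04 and the ependymal 1.25, with 39 genes higher, 49 lower, 4377 peaks higher and 81.0% of spots on 6 second segments. Without strip 1 the ependymal ratio was 1.06, with 303 genes higher and 599 lower. Without strip 2 these counts were 265 and 490, and without strip 3 they were 257 and 511. With no minimum 211 genes were higher, and with a minimum of 50 counts 14812 peaks. Of the Ttr-rich spots, 95% lay on 3 second and 22.0% on 6 first segments. The choroid plexus promoter ratio with the 200 highest spots was 1.05 (0.934 to 1.17), an interval that held 1.

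The next settings were chosen after seeing the data. Within the 3 strips, the meningeal ratio turned to 1.035, and the choroid plexus ratio was 1.99 and that of fragments per spot 0.793, with 855 genes higher, 687 lower and 15401 peaks higher. For the 20 highest spots, the choroid plexus ratio was 5.38, the meningeal 0.847, the ependymal 2.95 and that of choroid plexus promoters 1.79, with 987 genes higher, 2123 lower and 13554 peaks higher. For the other 80, the choroid plexus ratio was 1.53 and the ependymal 1.15. Without Mia the ependymal ratio was 1.12. The settings that leave out strip 2 or 3 were also added after seeing the data. Smaller groups of spots hold fewer counts, and the cause of the larger counts of genes and peaks was not tested. No paired analysis was possible because each assay has 1 library.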
